A study of Drosophila melanogaster with 17 samples.

Results

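The circadian clock genes described here are the 8 rows of the count tables named per, tim, Clk, cyc, vri, Pdp1, cry and cwo. They were taken out of 16977 genes by gene symbol, not by a rule on measured values. Earlier results of these data were known when they were chosen. RNA bound to tagged ribosomes was recovered with anti-Flag beads from 17 samples of Drosophila melanogaster (translating ribosome affinity purification, TRAP). Heads came from pooled males aged 2 days, with 3 TRAP samples (DIP-γ-GAL4 > Flag-GFP-RpL10) and 3 controls (Flag-GFP-RpL10/+). Larval axonal sections came from pooled L3 larvae, with 3 TRAP samples (OK371-GAL4 > Flag-GFP-RpL10) and 3 controls of the same driverless genotype. Legs came from pooled males and females aged 2 days, with 3 TRAP samples (DIP-γ-GAL4 > Flag-GFP-RpL10) and 2 controls.

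Every sample, controls included, carried the UAS-Flag-GFP-RpL10 transgene and went through the same immunoprecipitation. The controls lacked GAL4, and the transgene is known to leak without a driver, so a control sample holds RNA from leaky ribosomes and from background binding rather than the RNA of one cell type. DIP-γ-GAL4 labels a subset of neurons and OK371-GAL4 labels glutamatergic neurons, motor neurons among them. The TRAP samples hold such leaky and background RNA too, beside the RNA of driver-labelled ribosomes. A fold change here is therefore the level in that mixture over the level in the background alone. Because these are bulk samples, fewer cells of a type and less RNA per cell cannot be told apart. The flies were kept on a light:dark cycle, and the hour at which tissue was collected is not given in the sources used here, so the phase of the clock in these samples is not known.

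The fly clock is a loop of transcription and delayed repression. The proteins of Clk and cyc form a dimer that binds E-boxes and activates per, tim, vri, Pdp1 and cwo, and the proteins of per and tim later enter the nucleus and silence that dimer. A second loop, in which the protein of vri represses Clk and that of Pdp1 activates it, sets the rhythm of Clk itself, and light resets the clock through cry, a blue light photoreceptor whose protein triggers the loss of TIM. In the head the clock runs in photoreceptors, in glia, in the fat body and in a small set of brain neurons.

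In the BDGP6 coordinates of the tables, which matched a newer Ensembl annotation for all 8, per (FBgn0003068) lies on chromosome X at 2685580-2692780 on the plus strand. The gene tim (FBgn0014396) lies on 2L at 3493986-3508119 (minus) and vri (FBgn0016076) on 2L at 5288944-5311223 (plus). Clk (FBgn0023076, 7763233-7775603), Pdp1 (FBgn0016694, 7811458-7867369) and cyc (FBgn0023094, 19813770-19815938) lie on 3L, all on the minus strand. The remaining pair, cwo (FBgn0259938, 10388258-10400752) and cry (FBgn0025680, 19212154-19215442), lies on 3R on the plus strand. In 4 cases the locus shares bases with another gene, namely per with CG2650, Clk with CG32371, vri with CR45730 and cry with vib. Whether the counting used strand is not stated, so reads in a shared stretch could belong to either gene.

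Total counts were 29512310 to 88324615 per sample, so that 3 counts corresponded to at most 0.105 CPM (counts over the library size, which was scaled by TMM within a tissue). DIP-gamma, the gene whose driver was used, was at 34.4 CPM in head TRAP samples against 0.725 in head controls (log2 fold change 5.57, adjusted p = 0.00142, edgeR), and head TRAP replicate 3 was the lowest of the 3 at 10.3 CPM. In legs DIP-gamma reached at most 0.277 CPM, so it gives no check of the leg labels. All 9 neuron markers were higher in head TRAP samples (adjusted p under 0.05, edgeR), beside 7.23% of all genes tested. Their summed level was 966 to 4050 CPM against 500 to 571 in controls, and TRAP replicate 3 was again the lowest. In legs the same neuron markers summed to 203 to 226 CPM in TRAP samples and 202 to 233 CPM in controls. A pair of larval samples stood apart, with 5504 genes without a count in control replicate 1 and 6086 in TRAP replicate 2, against 782 to 3163 in the other larval samples. The labels give 1 batch per tissue, so tissue and batch cannot be told apart.

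In heads 1 of the 8 clock genes, cry, was lower in TRAP samples at an adjusted p under 0.05, where 9.41% of the 16638 genes tested were lower. None of the 8 was higher at that threshold, where 7.23% of all genes tested were. At an unadjusted p under 0.05, 3 of the 8 passed (per, cyc and cry), beside 29.7% of all genes. The median log2 fold change of the 8 was 0.16 and that of all genes tested in heads was 0.32.

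The level of cry in head controls 1, 2 and 3 was 108, 104 and 112 CPM. In head TRAP replicates 1, 2 and 3 it was 56.96, 56.7 and 60.9 CPM. The groups were well apart, with each group's 3 samples close together, and cry had the lowest spread within the TRAP group of the 8 genes (CV 4.07%). The TRAP mean was 0.539 of the control mean (58.2 ± 2.37 against 108 ± 3.86 CPM, SD, n = 3 each), and the log2 fold change was -0.89 (SE 0.16, 95% interval -1.20 to -0.59, adjusted p = 0.00418, edgeR's quasi-likelihood test with Benjamini-Hochberg adjustment over all genes).

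The size of this difference depended on how libraries were scaled. TMM factors were 0.824 to 0.869 in head controls and 1.06 to 1.35 in head TRAP samples, so the factors themselves did not overlap between the groups. Without them cry was at 85.9 to 97.4 CPM in controls and 60.1 to 82.3 CPM in TRAP samples, still lower in every TRAP sample, and its log2 fold change was -0.40 (adjusted p = 0.122, edgeR), no longer a call. Over all genes this scaling moved the calls from 1203 higher and 1565 lower to 2909 higher and 463 lower. One fit of all 17 samples also lost the call (log2 fold change -1.01, adjusted p = 0.593, edgeR). In the 15 other alternatives, each head sample left out in turn among them, cry stayed lower and below the threshold.

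**Figure D1:**
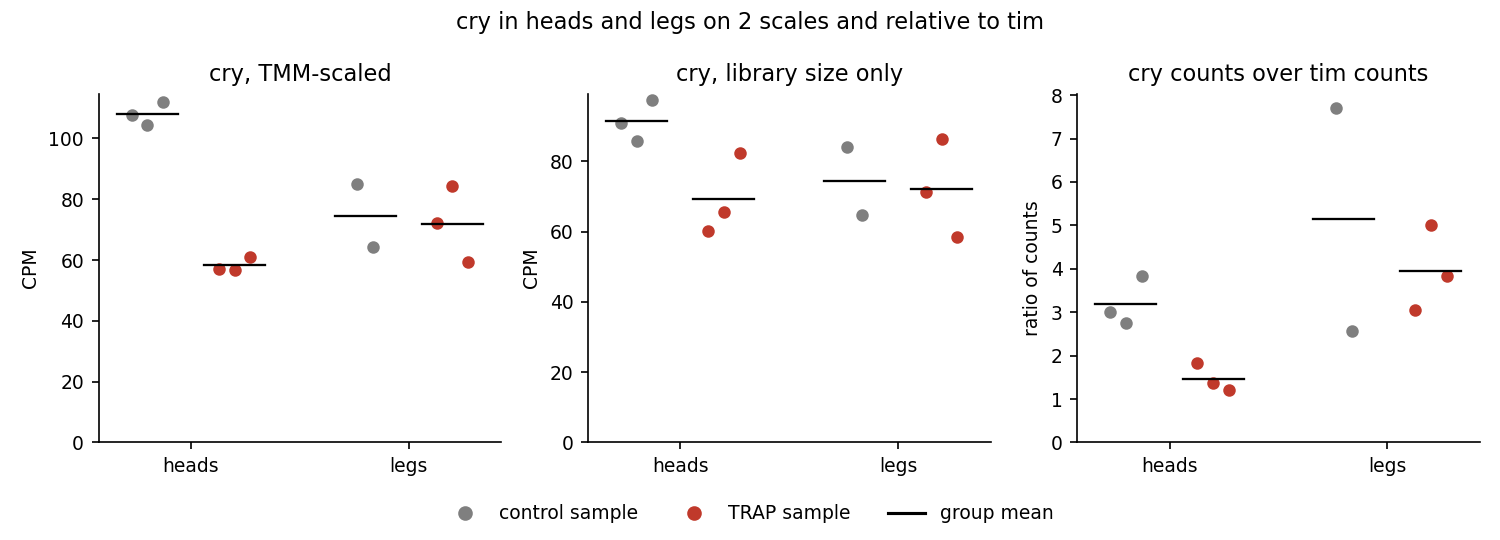
Level of cry in heads and legs, as CPM with TMM scaling (left) and by library size only (middle), and the ratio of cry counts to tim counts in the same library (right). Points are samples, grey for controls and red for TRAP, and lines are group means. On each axis the 3 head TRAP points lie below the 3 head controls, while the leg groups overlap.

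A ratio of 2 genes within one library needs no scaling between libraries. Counts of cry over those of tim, whose protein is the target of CRY in light, were 2.996, 2.75 and 3.84 in head controls 1, 2 and 3. In head TRAP replicates 1, 2 and 3 the ratio was 1.83, 1.37 and 1.22, below every control. The ratio moves with either gene, and by library size only the log2 fold change was 0.77 for tim and -0.40 for cry. TRAP replicate 3, with the lowest ratio, was also the sample with the highest level of tim. In leg controls the ratio was 7.71 and 2.56 and in leg TRAP samples 3.05, 5.0 and 3.83, so the leg groups overlapped.

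Markers of other cell types in heads were read beside cry, where 7.23% of all genes tested were called higher and 9.41% lower. Of the 8 glia markers 0 rose and 1 fell (Eaat1, a glutamate transporter, log2 fold change -0.95, adjusted p = 0.00446, edgeR), with a median log2 fold change of 0.03. They summed to 1727 to 2133 CPM in controls and 1167 to 1362 CPM in TRAP samples. Most of that sum was Gs2, a glutamine synthetase (mean 1502 CPM in controls and 1001 CPM in TRAP samples), which did not pass, and repo, the glial transcription factor, was at 3.58 CPM in controls and 5.58 in TRAP samples. Of the 8 muscle markers 0 rose and 3 fell, namely Act88F, an actin of flight muscle (-1.02, adjusted p = 0.00473), and the troponin genes wupA (-1.86, adjusted p = 0.00203) and up (-2.01, adjusted p = 0.00172, all edgeR). The muscle markers summed to 6106 to 10728 CPM in controls and 3144 to 6669 CPM in TRAP samples, which overlap. Of the 7 fat body markers 0 passed, and their sums overlapped at 293 to 405 CPM in controls and 344 to 589 CPM in TRAP samples. The part of these cell types in the level of cry was not tested. The gene vib, which shares bases with the end of cry, was at 114.6 to 136 CPM in head controls and 78.4 to 160 CPM in TRAP samples, so its groups overlapped.

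Clk encodes the activator that gives the loop its drive. Its level was 15.0, 10.5 and 19.0 CPM in head controls 1, 2 and 3 and 12.2, 16.0 and 21.7 CPM in head TRAP replicates 1, 2 and 3. The 2 groups spanned nearly the same range, and the log2 fold change was 0.16 (SE 0.29, 95% interval -0.41 to 0.73, adjusted p = 0.733, edgeR). That sign was not stable, since the value was -0.03 without control replicate 2 and -0.14 without TRAP replicate 3.

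The partner of Clk, cyc, was at 36.9, 35.7 and 38.1 CPM in head controls 1, 2 and 3. In head TRAP replicates 1, 2 and 3 it was at 31.4, 26.4 and 25.6 CPM, every one under the controls. The log2 fold change of cyc was -0.41 (SE 0.18, adjusted p = 0.154, edgeR), which did not pass, and it was 0.07 by library size only. Counts of Clk over counts of cyc were 0.407, 0.296 and 0.498 in head controls and 0.387, 0.606 and 0.846 in head TRAP samples, which overlap.

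The repressor per was at 7.88, 10.8 and 7.70 CPM in head controls 1, 2 and 3. It was at 15.2, 14.9 and 11.4 CPM in head TRAP replicates 1, 2 and 3. All TRAP samples lay above all controls, with the nearest pair, TRAP replicate 3 and control replicate 2, 11.4 and 10.8 CPM. Its log2 fold change was 0.65 (SE 0.25, adjusted p = 0.108, edgeR), and it passed with DESeq2 (0.71, adjusted p = 0.0415) and by library size only (1.13, adjusted p = 0.00642, edgeR). CG2650, which overlaps the end of per on the other strand, was at 18.4 to 20.4 CPM in head controls and 0.791 to 8.88 CPM in head TRAP samples, so it differed in the direction opposite to per.

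The partner of per, tim, was at 35.9, 38.0 and 29.2 CPM in head controls 1, 2 and 3 and at 31.1, 41.5 and 49.99 CPM in head TRAP replicates 1, 2 and 3. The groups overlapped, and the highest sample was TRAP replicate 3. The log2 fold change of tim was 0.25 (SE 0.22, 95% interval -0.18 to 0.68, adjusted p = 0.472, edgeR) and 0.02 without that sample. Counts of per over counts of tim were 0.219, 0.284 and 0.264 in head controls and 0.489, 0.359 and 0.228 in head TRAP samples, so TRAP replicate 3 fell among the controls.

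In the second loop, the repressor vri was at 131, 132 and 116 CPM in head controls 1, 2 and 3. It was at 93.8, 107 and 112 CPM in head TRAP replicates 1, 2 and 3. Every TRAP sample was lower than every control, by little between 112 and 116 CPM, and the log2 fold change was -0.28 (SE 0.16, adjusted p = 0.293, edgeR), turning to 0.22 by library size only. Its counterpart Pdp1, the activator of that loop, was at 173, 185 and 237 CPM in controls and 257, 216 and 228 CPM in TRAP samples. The groups of Pdp1 overlapped through control replicate 3, and the log2 fold change was 0.24 (SE 0.18, 95% interval -0.12 to 0.59, adjusted p = 0.417, edgeR), with 0.71 (adjusted p = 0.0238) by library size only.

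The repressor cwo, a basic helix-loop-helix Orange protein that competes for the E-boxes of the activators, was at 45.3, 33.2 and 36.3 CPM in head controls 1, 2 and 3. In head TRAP replicates 1, 2 and 3 it was at 41.8, 41.0 and 44.8 CPM, all within the span of the controls. The log2 fold change of cwo was 0.15 (SE 0.18, 95% interval -0.21 to 0.51, adjusted p = 0.601, edgeR), and by library size only it was 0.64 (adjusted p = 0.0422). Over the 8 clock genes, 1 had every TRAP sample above every control (per; 16.3% of all genes tested did) and 3 had every TRAP sample below (cyc, vri and cry; 18.2%). The groups of these 4 did not overlap, beside 34.5% of all genes.

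**Figure D2:**
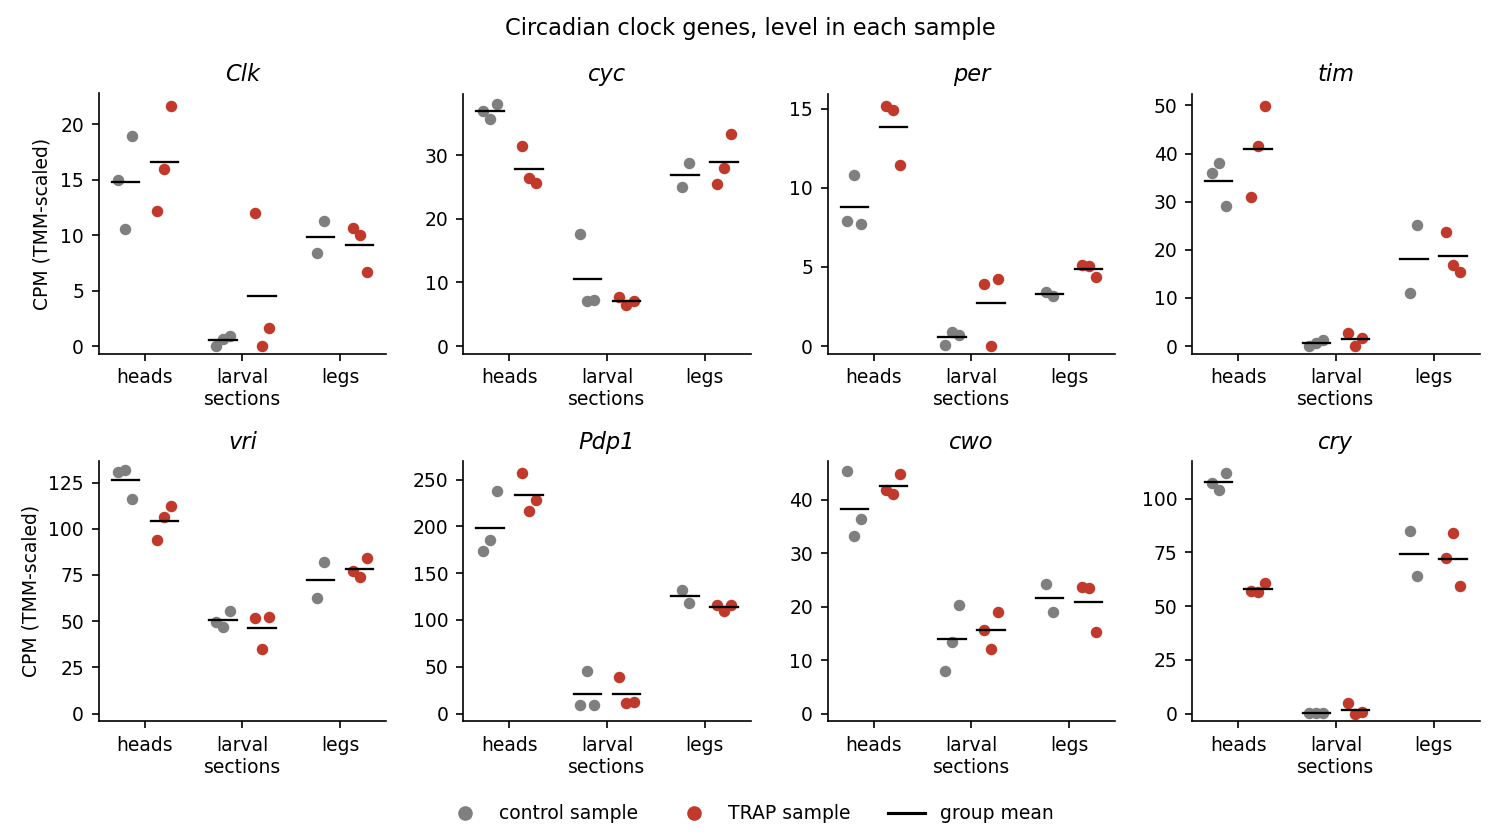
Level of each clock gene in every sample, in CPM with TMM scaling within a tissue; the axes start at 0 and differ between genes. Grey points are controls, red points TRAP samples and lines group means. Only for cry in heads did the difference between TRAP and control pass an adjusted p of 0.05, and per, tim, Clk and cry were near 0 in most larval samples.

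In larval axonal sections 0 of the 8 clock genes passed an adjusted p of 0.05 in edgeR, beside 0.245% of the 16702 genes tested (0.234% higher and 0.0120% lower). At an unadjusted p under 0.05 there were also 0 of the 8, beside 6.71% of all genes, and DESeq2 called 0. None of the 8 had groups that did not overlap, against 10.3% of all genes tested (4.53% with every TRAP sample above and 5.76% with every one below). The larval samples split the 8 into a pair of sets by level. The genes vri, cyc, cwo and Pdp1 were detected in all 6 samples, while per, tim, Clk and cry together had 22 counts in control replicate 1 and 0 in TRAP replicate 2.

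The level of vri in larval controls was 49.5, 47.0 and 55.8 CPM and in larval TRAP samples 51.6, 35.2 and 52.1 CPM. Its SE was the smallest of the 8 there (log2 fold change -0.13, SE 0.39, adjusted p = 0.965, edgeR). For cyc the controls were at 17.6, 7.03 and 7.20 CPM and the TRAP samples at 7.78, 6.52 and 7.02 CPM, with control replicate 1 alone far above the rest (log2 fold change -0.58, SE 0.63, adjusted p = 0.891, edgeR). For cwo the controls were at 8.03, 13.4 and 20.2 CPM and the TRAP samples at 15.6, 12.1 and 19.0 CPM, inside the span of the controls. Pdp1 was at 8.91, 45.2 and 9.06 CPM in controls and 38.9, 11.8 and 12.1 CPM in TRAP samples. One sample in each group, control replicate 2 and TRAP replicate 1, stood well above the others for Pdp1, and its log2 fold change was -0.01 (SE 0.62, adjusted p = 0.997, edgeR).

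Clk had 1, 61 and 91 counts in larval controls 1, 2 and 3 and 822, 0 and 65 counts in larval TRAP replicates 1, 2 and 3. The counts of cry were 16, 19 and 18 in controls and 350, 0 and 22 in TRAP samples. TRAP replicate 1 was thus the only larval sample with over 100 counts of either gene. The log2 fold changes were 3.14 for Clk (SE 1.79, adjusted p = 0.808, edgeR) and 3.24 for cry (SE 2.11, adjusted p = 0.828, edgeR), and without TRAP replicate 1 they were 0.64 and 0.45. In the same sample the 9 neuron markers summed to 249 CPM, against 11.8 to 49.4 in the other larval samples. The 8 photoreceptor markers summed to 18.1 CPM there, against 0.495 to 6.09 in the others. The part of either in these counts was not tested.

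The level of per in larval samples was 0.0707, 0.895 and 0.712 CPM in controls and 3.94, 0 and 4.23 CPM in TRAP samples. TRAP replicates 1 and 3 were above all controls and TRAP replicate 2 held none (log2 fold change 2.28, SE 1.84, adjusted p = 0.857, edgeR). For tim the values were 0, 0.676 and 1.28 CPM in controls and 2.77, 0 and 1.72 CPM in TRAP samples (log2 fold change 1.197, SE 2.08, adjusted p = 0.928, edgeR). A count of 0 in TRAP replicate 2 allows a level of up to 0.105 CPM for each of the 4 genes, counting error only. Without control replicate 1 and TRAP replicate 2 the log2 fold changes were 2.19 for per, 1.0 for tim, 2.89 for Clk and 3.65 for cry, and none of these passed. With the labels' library number as a block they turned to -1.08 for per, -2.15 for tim, -1.66 for Clk and -0.74 for cry, without a call. In that block control replicate 1 and TRAP replicate 1 had no partner, so the fit rested on replicates 2 and 3 of each group. TRAP replicate 2, which held 0 counts of these 4 genes, was thus 1 of 2 TRAP samples behind the turned signs. As no fit gave a call, no direction can be given for these 4 genes in larvae.

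In legs 0 of the 8 clock genes passed an adjusted p of 0.05 in edgeR, beside 0.232% of the 14200 genes tested (0.113% higher and 0.120% lower). DESeq2 called 0 of the 8, and at an unadjusted p under 0.05 there were 0, beside 9.08% of all genes. The median log2 fold change was -0.00 for the 8 and -0.01 for all genes. Of the 8, 1 had every TRAP sample above both controls (11.8% of all genes) and 1 had every TRAP sample below (12.8%), and 24.7% of all genes were apart in either direction.

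The gene above was per, at 3.44 and 3.18 CPM in leg controls 1 and 2 and 5.12, 5.03 and 4.39 CPM in leg TRAP replicates 1, 2 and 3. The TRAP samples were all higher, and the log2 fold change was 0.55 (SE 0.41, 95% interval -0.25 to 1.36, adjusted p = 0.729, edgeR). The gene below was Pdp1, at 132 and 118 CPM in controls and 116, 110 and 116 CPM in TRAP samples, where the nearest values differ by little (log2 fold change -0.14, SE 0.15, adjusted p = 0.829, edgeR).

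In legs cry was at 84.9 and 64.2 CPM in controls 1 and 2 and 72.2, 84.2 and 59.3 CPM in TRAP replicates 1, 2 and 3. The groups covered the same range, and the log2 fold change was -0.05 (SE 0.20, 95% interval -0.45 to 0.34, adjusted p = 0.961, edgeR). The value of tim in leg controls was 11.004 and 25.1 CPM, with the TRAP samples between them at 23.7, 16.8 and 15.5 CPM. The 2 leg controls thus differed more in tim than the TRAP group did from them. The other 4 clock genes had overlapping groups, with log2 fold changes of -0.12 for Clk, 0.11 for cyc, 0.11 for vri and -0.06 for cwo (SE 0.30, 0.19, 0.18 and 0.24).

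**Figure D3:**
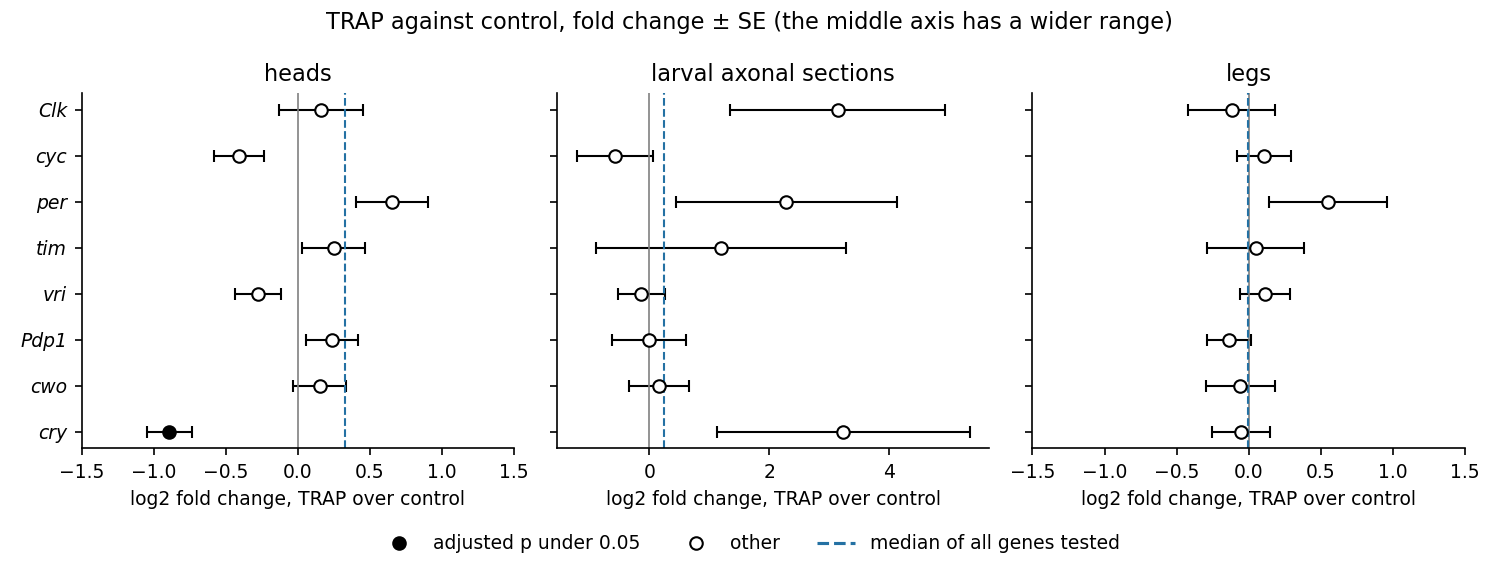
Log2 fold change of TRAP over control for each clock gene in the 3 tissues, with bars of 1 SE; the larval axis has a wider range. The filled point has an adjusted p under 0.05 and the dashed line is the median of all genes tested. In heads cry lies at -0.89, and the larval bars of per, tim, Clk and cry span SEs of 1.79 to 2.11.

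The effects of TRAP in the 3 tissues were compared by the genotype by tissue interaction in edgeR. Per the paper, legs and larval sections hold motor neuron axons apart from their cell bodies, while heads were taken whole. Heads came from males and legs from both sexes, and larvae differed from both in driver and stage. Such differences, like batch, cannot be told apart from tissue in the values below. Between heads and legs 0 of the 8 passed an adjusted p of 0.05, beside 6.84% of all genes tested, and at an unadjusted p under 0.05 there was 1 (cry), beside 22.9%. The difference for cry, heads minus legs, was -0.87 on the log2 scale (SE 0.27, 95% interval -1.40 to -0.35, adjusted p = 0.0658, edgeR), and without leg TRAP replicate 3 it was -1.001 (adjusted p = 0.0484, edgeR). Its adjusted p ran from 0.0484 to 1.0 over the alternatives. Hence the call for cry in heads and its absence in legs do not show a difference between these tissues at this threshold. For cyc the difference was -0.54 (SE 0.26, adjusted p = 0.226, edgeR), for vri -0.42 (SE 0.24, adjusted p = 0.329, edgeR) and for per 0.07 (SE 0.39, adjusted p = 0.9999, edgeR).

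Between heads and larval axonal sections 0 of the 8 passed, beside 0.0357% of all genes, and between larval axonal sections and legs 0 of the 8 passed, beside 0.0179%. At an unadjusted p under 0.05 there was 1 of the 8 in each comparison, cry both times, beside 9.08% and 5.32% of all genes. The difference for cry was -3.83 for heads minus larvae (SE 1.26, adjusted p = 0.388, edgeR) and 3.09 for larvae minus legs (SE 1.28, adjusted p = 0.925, edgeR), and without larval TRAP replicate 1, the sample with 350 counts, they were -1.38 and 0.63. The difference for Clk was -2.62 (SE 1.80, adjusted p = 0.680, edgeR) for heads minus larvae.

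Levels of the clock genes were set in order after division by exon length, as CPM per kb of exon in head controls. The level of cry was highest at 56.9 ± 2.03 (SD, n = 3), followed by vri at 26.6 ± 1.85, cyc at 22.7 ± 0.753 and Pdp1 at 16.4 ± 2.81. Below them came cwo at 7.52 ± 1.24, tim at 4.88 ± 0.655, Clk at 3.29 ± 0.933 and per at 1.94 ± 0.382 CPM per kb. Neighbours in this order did not overlap over the 3 samples except tim with Clk and Clk with per. Whether reads in introns were counted is not stated, so the division may not suit genes with long introns such as vri and Pdp1.

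In head TRAP samples the order by CPM per kb of exon was cry (30.7), vri (22), Pdp1 (19.3), cyc (17.1), cwo (8.36), tim (5.80), Clk (3.68) and per (3.06), so that cyc and Pdp1 changed places. In leg controls it was cry (39.3), cyc (16.6), vri (15.3), Pdp1 (10.3), cwo (4.25), tim (2.56), Clk (2.19) and per (0.731). In larval controls vri (10.7) and cyc (6.52) led, and per (0.124), Clk (0.113), cry (0.105) and tim (0.0928) were far below the rest. The photoreceptor gene cry was thus first of the 8 in heads and legs and near the bottom in larval axonal sections, a description over tissues in separate batches.

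Relative to the head control mean in CPM, the leg control mean of the 8 ranged from 37.6% for per to 72.9% for cyc. The larval control mean ranged from 0.184% for cry to 40.2% for vri, with cwo at 36.3% and cyc at 28.7%. The 8 genes together summed to 519 to 596 CPM in head samples, 335 to 354 CPM in leg samples and 65.6 to 138 CPM in larval samples. TMM factors were set within each tissue, so these levels are compared across separate scalings.

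Genes around the clock were read from the same fit of heads, in lists written by hand. Beside them 7.23% of all genes were called higher and 9.41% lower. The lists were written with earlier results of these data known, so their counts are a description and no test. The list of clock regulators, kinases, phosphatases, ubiquitin ligases and translation factors that act on clock proteins, had 3 of 19 higher and 0 lower (median log2 fold change 0.25). The count of 3 was not stable, at 0 in one fit of all 17 samples, 13 by library size only and 1 to 6 with single samples left out. The highest was nmo, a kinase that phosphorylates PER, at 31.2, 34.0 and 36.2 CPM in controls and 132, 104 and 73.5 CPM in TRAP samples. Its log2 fold change was 1.61 (SE 0.23, adjusted p = 0.00164, edgeR). The ubiquitin ligase gene ctrip (0.82, adjusted p = 0.0278) and nej, the CBP acetyltransferase (0.74, adjusted p = 0.0260, both edgeR), rose too. The doubletime kinase gene dco, whose product drives the turnover of PER, was at 24.6 CPM in controls and 38.4 in TRAP samples (log2 fold change 0.64, adjusted p = 0.108, edgeR), which did not pass.

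The list of clock output genes and neuropeptides had 14 of 23 higher and 1 lower in heads, beside the same 7.23% and 9.41% of all genes, with a median log2 fold change of 1.48. The count higher was 1 in one fit of all 17 samples, 10 to 17 with single samples left out and at most 18. Since earlier results were known when this list was written, its count beside all genes is a description only. The 9 neuron markers all rose in heads too (median log2 fold change 2.03), so a rise was not particular to this list. Pdf, the peptide of the ventral lateral clock neurons, had 31, 9 and 4 counts in head controls 1, 2 and 3 and 8711, 4999 and 2209 counts in head TRAP replicates 1, 2 and 3. In CPM the means were 0.460 and 143, and the log2 fold change was 8.28 (SE 0.77, adjusted p = 0.000503, edgeR). The peptide genes AstC (6.03, adjusted p = 0.000237), Dh31 (5.25, adjusted p = 0.000727) and Dh44 (4.76, adjusted p = 0.000551), which are made by clock neurons or by their output cells, rose as well in edgeR. TRAP replicate 3 was the lowest TRAP sample for each of these 4 peptide genes, as it was for DIP-gamma.

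The one output gene that fell was to (takeout), a clock-controlled gene of the fat body and other tissues. It was at 131, 152 and 156 CPM in head controls and 48.5, 50.5 and 55.3 CPM in head TRAP samples. The groups were far apart, and the log2 fold change of to was -1.51 (SE 0.17, adjusted p = 0.000739, edgeR).

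**Figure D4:**
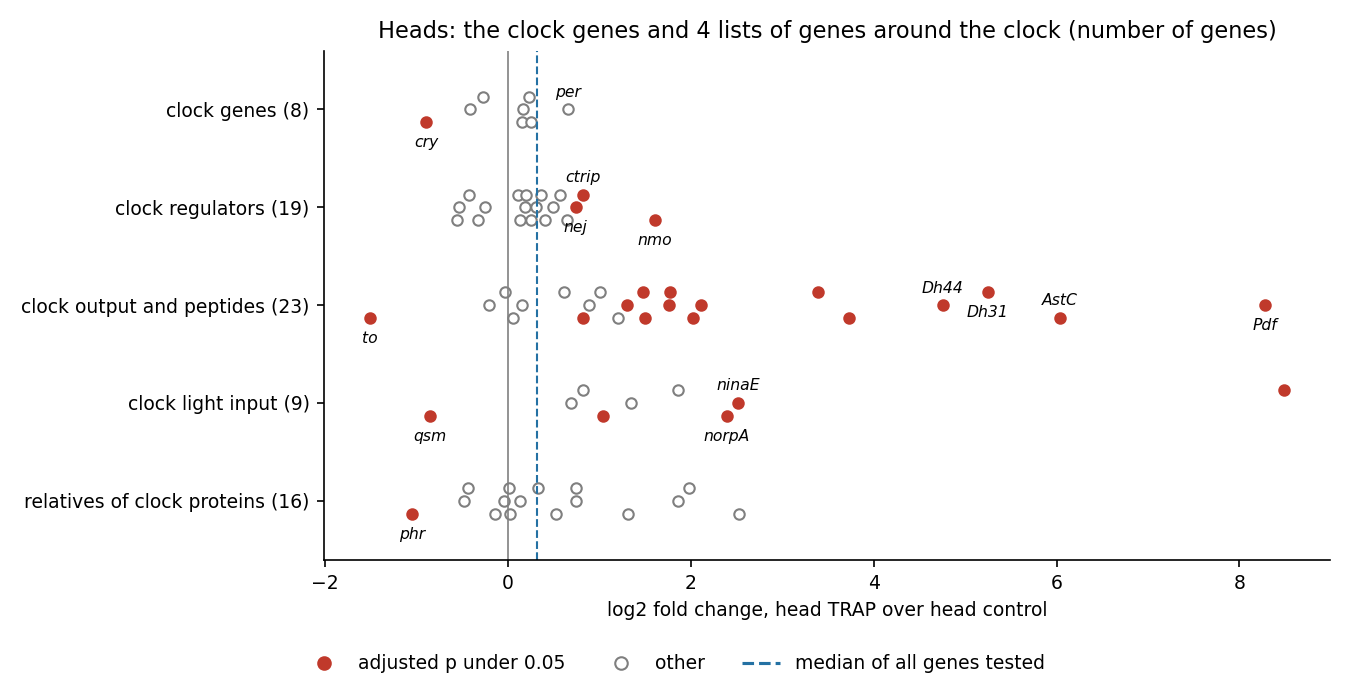
Log2 fold change in heads of the 8 clock genes and of 4 lists of genes around the clock, 1 point per gene, with the number of genes beside each name. Red points have an adjusted p under 0.05 and the dashed line is the median of all genes tested, 0.32. The clock genes lie between -0.89 and 0.65, while Pdf lies at 8.28 among the output genes.

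The list of light input genes had 4 of 9 higher and 1 lower in heads (7.23% and 9.41% of all genes; median log2 fold change 1.34). The count higher was 1 in one fit of all 17 samples and at most 6, and the lower call was lost in 6 of 17 alternatives. norpA, the phospholipase C of phototransduction, was at 19.3, 24.1 and 22.03 CPM in controls and 147, 142 and 56.5 CPM in TRAP samples (log2 fold change 2.40, adjusted p = 0.00162, edgeR). ninaE, the main rhodopsin of the eye, was at 11.8, 13.0 and 5.32 CPM in controls and 100, 50.7 and 22.5 CPM in TRAP samples (log2 fold change 2.52, adjusted p = 0.00883, edgeR). The 8 photoreceptor markers, of which 7 rose, summed to only 11.6 to 24.9 CPM in head controls and 57.9 to 155 CPM in TRAP samples. The gene that fell was qsm, a membrane protein that takes part in light responses of clock neurons, at 139, 173 and 184 CPM in controls and 83.2, 89.0 and 104 CPM in TRAP samples (log2 fold change -0.85, adjusted p = 0.0105, edgeR).

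The list of relatives of clock proteins had 0 of 16 higher and 1 lower in heads, beside 7.23% and 9.41% of all genes. That gene was phr, a photolyase that repairs DNA in light and belongs to the same protein family as cry. It was at 39.8, 43.0 and 47.5 CPM in head controls and 24.0, 22.3 and 16.96 CPM in head TRAP samples (log2 fold change -1.04, adjusted p = 0.00625, edgeR). In larval axonal sections phr was at 61.95, 33.8 and 49.0 CPM in controls and 6.09, 6.52 and 8.96 CPM in TRAP samples (log2 fold change -2.75, adjusted p = 0.00410, edgeR). In legs it was at 33.4 and 33.7 CPM in controls and 12.4, 19.3 and 10.2 CPM in TRAP samples, with groups apart but no call (log2 fold change -1.27, adjusted p = 0.116, edgeR). Thus phr was lower in every TRAP sample than in every control of its tissue in all 3 tissues. This pattern was chosen for mention after the leg values of phr were seen. Every TRAP sample was below every control for 18.2% of all genes in heads, 5.76% in larvae and 12.8% in legs. The share of genes with the pattern in all 3 tissues was not counted. Of the 4 lists qsm showed the pattern too. Its larval means were 191 CPM in controls and 102 CPM in TRAP samples, and its leg means 208 and 159.96 CPM. Neither was a call, while cry showed the pattern in heads alone.

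Apart from phr, 0 genes of the 4 lists passed in larval axonal sections and 0 in legs (edgeR, adjusted p under 0.05). At an unadjusted p under 0.05 there were in larvae 1 of 19 clock regulators, 1 of 23 output genes, 1 of 9 light input genes and 1 of 16 relatives (phr), beside 6.71% of all genes. In legs there were 4 of 19, 1 of 23, 1 of 9 and 1 of 15, again phr, beside 9.08% of all genes. Pdf had at most 30 counts in any larval sample and at most 26 in any leg sample.

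The genes whose pattern was most like that of each clock gene were found by Pearson's r of log2 CPM over the 17 samples, among the 6970 or 6971 genes that averaged 10 CPM or more. These points fall into 3 tissues in separate batches, so r holds differences between tissues as well as within them and carries no test. The closest were CG30271 (r = 0.986) and Dif (0.985) for cry, Syn2 (0.983) and CG8245 (0.973) for Pdp1, and Dll (0.981) and CG2993 (0.977) for tim. For Clk they were Pura (0.977) and Eip93F (0.973), for per CG43867 (0.976) and DopEcR (0.964), and for cyc Pex14 (0.968) and CG15863 (0.965). The 2 genes with the least alike neighbours were vri, with bru2 (0.905) and jet (0.903), and cwo, with Octbeta1R (0.867) and Jhedup (0.860).

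Among the 8 themselves, r over the same 17 samples was highest for tim with Clk (0.964), per with Clk (0.949) and per with tim (0.938). It was lowest for cyc with cwo (0.302), and cyc with its partner Clk was at 0.562. These values are a description over samples that share tissue, batch and scaling.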

How the data were processed

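Head, larval axonal and leg samples of TRAP and control flies were compared within each tissue, with groups taken from their labels. The deposited values are raw counts per gene, which the authors made by trimming paired reads with Trim Galore, aligning them with HISAT2 2.2.1 to BDGP6, processing with SAMtools 1.12 and counting in SeqMonk. Strand, introns and whether reads or pairs were counted are not stated. A leg control with DNA contamination, dropped by the authors, is not analysed here.

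Genes were tested in a tissue where any of its samples held 1 count or more. The test was edgeR 4.0.16 in R 4.3.3, with TMM factors, the quasi-likelihood F-test (two-sided) and Benjamini-Hochberg adjustment over all genes, at a threshold of 0.05. SEs come from the F statistic and 95% intervals from the normal distribution. Likeness used a prior count of 2. Intervals include the spread between replicates through the fitted dispersion. Floors cover counting error only, since reads carry no molecular identifiers. Replicates were separate pools of animals per the methods, and no pair was a copy.

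The 8 members and the lists were chosen with earlier results of these data known. Named list genes are, per tissue and list, up to 4 called genes of largest rise and 4 of largest fall that averaged 10 CPM or more in the higher group. The genes dco, repo, Eaat1, Gs2, Pxn, Act88F, wupA and up were named after values were seen. The symbols nlf-1 and dys had no match. Alternatives were DESeq2 1.42.0, RLE factors, library size only, other filters, a threshold of 0.01, a robust fit, one fit of all 17 samples, blocks and leaving out each replicate. TMM factors without marker genes, and larvae without control replicate 1 and TRAP replicate 2, were chosen after seeing the data. The tests were checked on simulated data in which only genes averaging 10 CPM or more were changed. That check does not cover genes at lower levels, such as per, tim, Clk and cry in larvae.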

Additional observations from a re-analysis of the deposited data

Results flagged for a closer look

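The named list genes, chosen because they were called in heads (phr in larvae too), were read for differences between tissues in the TRAP effect by the genotype by tissue interaction in edgeR (adjusted p under 0.05), beside 6.84% of all genes for heads against legs. Since the choice itself favours a difference from heads, the values are a description. Batch, sex, cell compartment and, for larvae, driver and stage cannot be told apart from tissue in them. For heads minus legs the difference on the log2 scale was 9.81 for Pdf, 6.90 for AstC, 5.11 for Dh31, 4.16 for Dh44, 2.38 for norpA and 1.60 for nmo, while ctrip, nej, ninaE, phr, qsm and to did not pass. For heads minus larval axonal sections it was 10.6 for Pdf. In legs Pdf reached at most 0.324 CPM, AstC 0.275 CPM, Dh31 0.340 CPM and Dh44 2.44 CPM in any sample. No group held 4 samples, so no single sample was tested for standing apart.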

How the results depend on the processing

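In heads the count of clock genes called higher was 0 in 15 of 17 alternatives, 1 with DESeq2 (per) and 3 by library size only (per, Pdp1 and cwo). The count called lower was 1 in 15 of 17, and 0 by library size only and in one fit of all 17 samples. Counts in larvae and legs were 0 throughout. The count of differences between heads and legs was 1 by library size only (Pdp1) and 0 to 1 with single samples left out (cry). Library size only moved the heads median of all genes by 0.49 on the log2 scale, and other settings moved it by -0.24 to 0.07, with -0.78 to 0.11 in larvae. Over all genes in heads, 1203 were higher and 1565 lower. The other settings gave 53 (one fit of all 17 samples) to 2909 higher and 145 (that fit) to 1979 lower. In larvae (39 and 2) they gave 0 to 196 and 0 to 200, and in legs (16 and 17) 0 to 357 and 1 to 247. Directions turned in heads by library size only for cyc (0.0677) and vri (0.22), as did the heads to legs difference of vri (0.12). In larvae Pdp1 turned with DESeq2 (0.0913), RLE factors (0.0919), filterByExpr (0.0124) and a count in every sample (0.0403), and cwo by library size only (-0.12) and without control replicate 1 and TRAP replicate 2 (-0.11). With single replicates left out, Clk in heads ran from -0.14 to 0.38, Pdp1 in larvae from -0.79 to 1.22, cwo in larvae from -0.14 to 0.50, and the heads to legs difference of per from -0.0011 to 0.22. In legs tim ran from -0.43 to 0.75, Clk from -0.31 to 0.10, cyc from -0.0088 to 0.20, vri from -0.070 to 0.31, cry from -0.25 to 0.16 and cwo from -0.23 to 0.12. The cause of these changes was not tested.

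Replicate numbers were not taken as pairs in the main fit. Deviations of same-numbered head samples correlated at 0.282, 0.1297 and 0.0823, and those of other head pairs at -0.293 to 0.211. Pairing in heads is thus not excluded. In the other tissues same-numbered samples correlated at or under 0.0581. With 2 leg controls the deviations mirror each other, so the leg values cannot show pairing or its absence. With the replicate block the heads counts stayed at 0 higher and 1 lower (cry -0.89), and all genes gave 1406 higher and 1723 lower. The block turned Pdp1 in larvae (0.24) and Clk (0.0801), cyc (-0.0068), cry (0.0793) and cwo (0.13) in legs, none of them called. Leg TRAP replicate 3 had no control of its number, so the leg fit with this block rested on the other leg samples. Leaving out that sample gave near values, 0.0654 for Clk, -0.0088 for cyc, 0.0696 for cry and 0.12 for cwo. The library number as a block turned per (-1.08), tim (-2.15), Clk (-1.66), cry (-0.74) and cwo (-0.12) in larvae. Of the named list genes, phr in larvae lost its call in 5 of 18 alternatives, qsm in heads in 6 of 17, nej in 6 and ctrip in 5. In one fit of all 17 samples nmo, AstC, Dh31, Dh44, to, ninaE and phr in heads lost theirs too, while Pdf and norpA did not.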
